A study of Mus musculus with 7 samples.

Results

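The doublecortin family comprises Dcx, Dclk1, Dclk2 and Dclk3, 4 of the 21883 protein-coding genes examined for open chromatin in muscle stem cells (MuSCs). All 4 were chosen by name, and the peaks of each gene were those that overlapped its RefSeq span on mm10 (GRCm38) or the 20 kb on either side. ATAC-seq, in which the transposase Tn5 cuts and tags accessible DNA, had been performed on 5000 freshly sorted MuSCs per library, with the question of whether loss of Nedd4L alters chromatin accessibility. The comparison was between 4 Nedd4L-cKO libraries and 3 WT libraries. The mice were males aged 5 to 6 weeks, and the line was Nedd4L fl/fl Pax7 cre/+ on a C57BL/6 background. Cells were gated from hindlimb muscle as ITGA7+, CD31-, CD45-, CD11b- and SCA1-. Cre is expressed from the Pax7 locus, so the deletion is limited to cells that express or have expressed Pax7. Whether the WT mice carried the floxed allele or Cre is not given in the sources used here.

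Doublecortin proteins bind and stabilise microtubules through their doublecortin domains. DCX is best known from migrating immature neurons, where it guides movement of the nucleus and growth of processes, and it has also been described in MuSCs of young and regenerating muscle. DCLK1 and DCLK2 join doublecortin domains to a serine/threonine kinase domain and act beside DCX in neurons, and DCLK1 also marks tuft cells of the gut. DCLK3 is a related kinase and the least studied of the family.

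Open regions were called around all 4 genes in every library of both genotypes. The promoters of Dclk1, Dclk2 and Dclk3 were called as open in all 7 libraries, as were 59.1% of all 24217 promoters. A promoter peak at Dcx was called in 4 of 7 and was weak wherever it was called, and 5.9% of all promoters were called in 1 to 6. A region inside Dclk1, at the 96.5th percentile by fold enrichment or higher in every library, had the highest median of the family on that measure. By pileup its median percentile was 78.3, below the 81.7 of a region in Dclk3 and the 81.1 of another in Dclk1. No measure tested at the 4 genes differed between Nedd4L-cKO and WT at an adjusted p under 0.05. The tests between the genotypes were two-sided exact permutation tests of group means, with p printed as exact p, and limma on ranks. The smallest exact p with these libraries is 0.0286, and at most 2.88% of genes or promoters had p under 0.05. With so few at that level, an adjusted exact p could not fall under 0.05, so those adjusted values decide nothing.

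The 250 bases that precede annotated start sites are shown for the family promoters in the sequence table, so that the weakly called Dcx promoter can be read beside the others, with matches to 10 short motifs on either strand in capitals. The motifs were the E-box core CANNTG and its myogenic form, CAGCTG, the AP-1 type motif TGANTCA, the GC box motif GGGCGG, the CCAAT box, the TATA motif, here TATAAA, the TEAD type motif GGAATG, the RUNX type motif TGTGGT, a MEF2 motif and a palindromic homeodomain motif. Matches to CAGCTG are also matches to the E-box core. The sequences were read 5′ to 3′ on the strand of the gene from RefSeq promoter sequences on GRCm38. Of the family, 3 of 4 genes were in that table, and Dclk3 was not. Shown are the bases before the Dcx start at 143933219 (chrX:143933220-143933469, minus strand), the outer Dclk1 start at 55242364 (chr3:55242114-55242363, plus strand), the internal Dclk1 start at 55461728 (chr3:55461478-55461727, plus strand) and the Dclk2 start at 86920884 (chr3:86920885-86921134, minus strand).
Dcx promoter: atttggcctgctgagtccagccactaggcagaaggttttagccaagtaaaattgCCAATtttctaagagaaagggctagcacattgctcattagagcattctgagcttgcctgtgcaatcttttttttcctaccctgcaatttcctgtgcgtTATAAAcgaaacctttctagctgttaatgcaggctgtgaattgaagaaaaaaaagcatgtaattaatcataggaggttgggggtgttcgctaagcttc
Dclk1 outer promoter: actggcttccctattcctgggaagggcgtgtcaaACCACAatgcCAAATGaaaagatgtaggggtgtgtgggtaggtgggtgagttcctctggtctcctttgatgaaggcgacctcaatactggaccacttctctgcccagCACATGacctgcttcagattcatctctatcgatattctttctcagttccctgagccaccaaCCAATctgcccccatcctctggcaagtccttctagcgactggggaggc
Dclk1 internal promoter: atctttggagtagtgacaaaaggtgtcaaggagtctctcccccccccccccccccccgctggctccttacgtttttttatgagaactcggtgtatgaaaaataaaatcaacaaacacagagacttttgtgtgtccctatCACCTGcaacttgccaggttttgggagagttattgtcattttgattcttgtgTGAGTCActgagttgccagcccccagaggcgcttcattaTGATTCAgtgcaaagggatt
Dclk2 promoter: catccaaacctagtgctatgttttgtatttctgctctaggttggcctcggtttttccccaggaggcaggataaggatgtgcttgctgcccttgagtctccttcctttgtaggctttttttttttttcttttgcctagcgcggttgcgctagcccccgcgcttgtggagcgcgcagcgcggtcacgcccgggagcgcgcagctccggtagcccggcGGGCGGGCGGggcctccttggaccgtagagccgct

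The promoters differed in base composition. The Dcx sequence shown, before the start at 143933219, had a GC content of 41.6% with 3 CpG dinucleotides, lower in GC than most of the 32851 promoter sequences of the same length, among which it lay at the 14.9th percentile. The overlapping sequence before the Dcx start at 143933124, which is not shown, had 44.8% GC and 3 CpG, the 23.2nd percentile, with 1 TATAAA and no CCAAT. Dclk2 had 60.0% GC and 21 CpG, the 72.1st percentile, against a median of 52.4% and 6 CpG over all sequences. The outer Dclk1 promoter had 52.4% GC and the internal one 46.8%, each with 4 CpG. The Dcx sequence shown held 1 TATAAA, which 12.4% of all promoter sequences hold, and 1 CCAAT, which 33.8% hold. Neither Dcx sequence had a match to CANNTG, the E-box core that 66.2% of promoter sequences hold. At Dclk1, the outer promoter held 2 CANNTG, 1 CCAAT and 1 TGTGGT, a motif present in 14% of all sequences. The internal Dclk1 promoter held 1 CANNTG and 2 copies of TGANTCA, the AP-1 type motif that 6.75% of sequences hold. The Dclk2 sequence held 2 overlapping GGGCGG matches, the GC box found in 32.7%. A match describes letters in these windows and not binding.

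In the libraries as a whole, MACS2 kept 14.4 to 20.1 M tags (M, mega) and called 69302 to 79158 broad peaks per library, with the fewest tags in WT replicate 3, the library of lane 2. In WT replicates 1 and 2, 92.5% and 92.8% of broad peaks held a narrow peak, above the 84.7% to 87.3% of the other 5 libraries. Peaks in the window of the targeted gene, Nedd4l, numbered 33.2 ± 1.71 in Nedd4L-cKO (SD, n = 4) against 33.7 ± 0.577 for WT (SD, n = 3) (exact p = 0.83), and broad peaks of this kind do not show whether the floxed exon is absent. Promoter peaks were called in all 7 libraries for 8 of 8 MuSC markers and in 0 libraries for all 4 immune markers. Of other lineages, the neuronal markers Rbfox3 and Neurod1, the glial Sox10, the endothelial Pecam1 and Cdh5 and the fibro-adipogenic Pdgfra and Ly6a had no promoter peak in any library, whereas 3 of 6 neuronal, 3 of 5 glial, 2 of 4 endothelial and 1 of 3 fibro-adipogenic markers had one in all 7. Over all 24217 promoters, 59.1% were called in all 7 libraries and 35% in none. The number of neuronal markers with a promoter peak was 3 to 4 in the Nedd4L-cKO libraries and 4 in each WT library. What part cells of other types have in the family's peaks was not tested.

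Peak strength was compared as percentiles within a library, since the deposited fold enrichment and pileup come from separate MACS2 runs. A percentile of 80 means that 80% of the peaks in that library had a lower value. Fold enrichment sets the signal of a peak against the local background, and pileup is the signal alone, so the 2 can rank a promoter differently. In broad mode both, like the −log10 q, are means over the whole peak and not heights at a summit. Promoters of the MuSC markers lay at medians of 71.8 to 98.1 by pileup but of 0.979 to 56.8 by fold enrichment, which is why both are given.

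The Dcx promoter was the only one of the 5 family promoters without a call in every library. Dcx, gene 13193, spans chrX:143855842-143933396 on the minus strand, and its 3 annotated start sites at 143933124, 143933219 and 143933396 shared 1 region, chrX:143932504-143933824. A peak was called there in Nedd4L-cKO replicates 1 and 4 and in WT replicates 2 and 3. The −log10 q of those peaks was 2.43 and 2.499 in Nedd4L-cKO and 2.36 and 2.11 in WT, against a calling threshold of 1. By fold enrichment the peaks lay at the 36.0th and 37.7th percentile in Nedd4L-cKO and at the 32.4th and 29.4th in WT. Pileup placed them lower, at 15.2 and 15.6 in Nedd4L-cKO and 9.65 and 10.8 in WT. The 3 libraries without a call held 15.1, 18.4 and 17.4 M tags, within the range of the 4 libraries with one. What part depth has in these calls was not tested. In a bulk library, a site open in few cells and a weakly open site in most cells cannot be told apart. As peak lists give no value where nothing was called, no test between the genotypes was made at this promoter.

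The X chromosome is present as a single copy in males. The median pileup of X peaks was 11.3 to 13.9 against 13.7 to 16.9 over all peaks of the same libraries, while the median fold of X peaks was higher than over all peaks in each library. Ranked among peaks on the X chromosome alone, the Dcx promoter peaks lay at 30.8, 31.0, 23.0 and 24.6 by fold enrichment and at 19.8, 20.0, 11.8 and 14.9 by pileup, in the same order of libraries. Thus the promoter was also among the lower-ranked X peaks. Of 1090 X promoters, 43.0% were called in all 7 libraries, 51.7% in none and 5.32% in 1 to 6, the class that holds Dcx. Over all 24217 promoters these shares were 59.1%, 35% and 5.9%.

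Dclk1 has 2 promoters, and the internal one, in a region centred 219.6 kb downstream of the outer start, varied widely between libraries. Dclk1, gene 13175, spans chr3:55242303-55539068 on the plus strand. At the outer start sites, 55242303 and 55242364, the region chr3:55241786-55243456 was called in all 7 libraries, with a −log10 q of 10.6, 11.3, 11.99 and 10.5 in Nedd4L-cKO and 13.0, 13.1 and 13.1 in WT. Each WT value was above each Nedd4L-cKO value, but −log10 q is not scaled between libraries and was not tested. The percentile by fold enrichment was 79.9 ± 4.94 in Nedd4L-cKO (SD, n = 4) against 84.6 ± 3.10 for WT (SD, n = 3), and the libraries overlapped (exact p = 0.229). By pileup it was 74.9 ± 3.03 (SD, n = 4) and 79.1 ± 2.08 (SD, n = 3) (exact p = 0.171). With 35 divisions of the libraries the smallest possible p is 0.0286, and 2.88% of the 14318 promoters called in all 7 libraries had p under 0.05 by fold and 1.46% by pileup.

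The internal Dclk1 start at 55461728, which begins shorter transcripts, lay in the region chr3:55461545-55462207. Its percentile by fold enrichment was 92.7, 87.7, 56.7 and 53.9 in Nedd4L-cKO replicates 1 to 4 and 22.3, 86.0 and 78.6 in WT replicates 1 to 3. The −log10 q was 7.96, 6.78, 3.49 and 3.44 in Nedd4L-cKO and 1.88, 6.70 and 5.65 in WT. Both genotypes thus held high and low libraries, and WT replicate 1 was the lowest of all. The means were 72.7 ± 20.3 in Nedd4L-cKO (SD, n = 4) against 62.3 ± 34.9 for WT (SD, n = 3) (exact p = 0.657). By pileup the same promoter ranked at 37.8 ± 15.1 (SD, n = 4) and 30.1 ± 21.8 (SD, n = 3) (exact p = 0.629).

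At Dclk2 and Dclk3, the 1 promoter examined for each gene was called as open in every library. Dclk2, gene 70762, spans chr3:86786150-86920952 on the minus strand, and its start sites at 86920884 and 86920952 lay in chr3:86919602-86921384. Its −log10 q was 8.42, 9.22, 9.28 and 12.2 in Nedd4L-cKO and 10.9, 9.81 and 11.01 in WT, so the ranges overlapped. The percentile by fold was 78.2 ± 4.80 in Nedd4L-cKO (SD, n = 4) against 78.0 ± 6.64 for WT (SD, n = 3) (exact p = 0.943). Dclk3, gene 245038, spans chr9:111439081-111489611 on the plus strand. It was missing from the promoter sequences, so only the outer end of its span served as a start site, and internal starts were not examined. That outer end lay in chr9:111438452-111440309. There the −log10 q was 7.73, 8.10, 8.28 and 8.49 in Nedd4L-cKO and 7.57, 6.93 and 9.19 in WT. The percentile by fold was 63.8 ± 3.85 in Nedd4L-cKO (SD, n = 4) against 57.6 ± 6.90 for WT (SD, n = 3) (exact p = 0.229). By pileup, Dclk2 gave p = 0.171 and Dclk3 p = 0.83 in the same exact permutation test. Across the 4 promoters called in every library, adjusted p-values over all promoters were 0.979 or higher, and in this exact test they could not fall under 0.05.

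**Figure D1:**
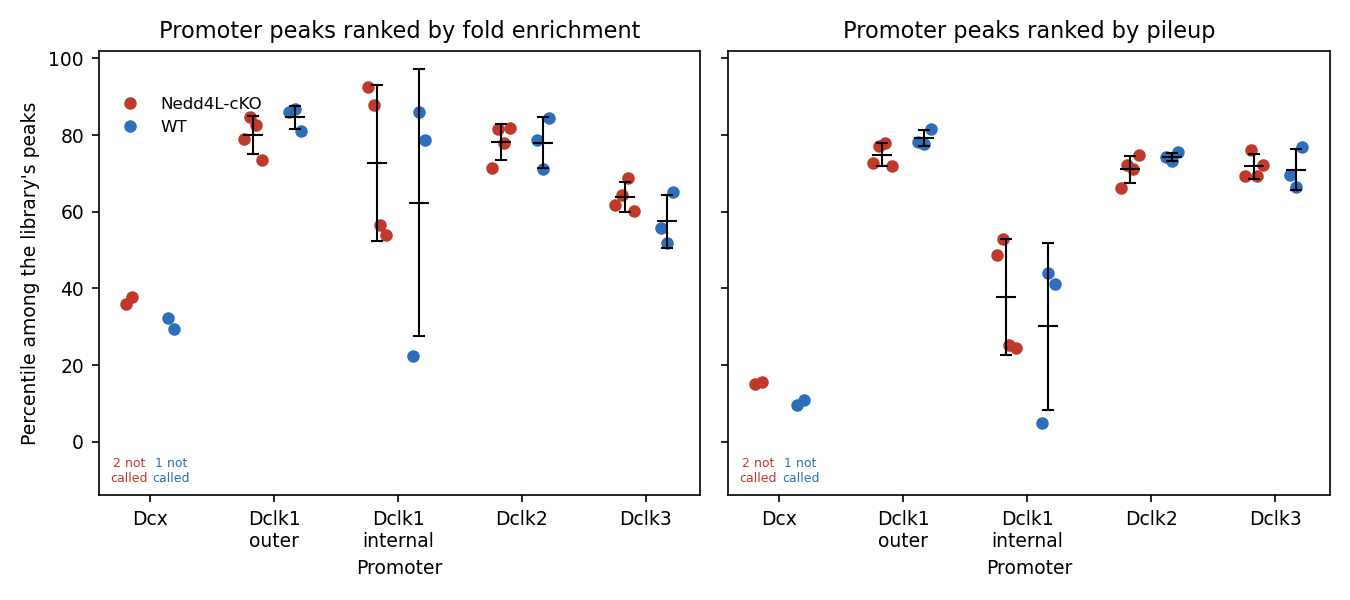
Percentile of each promoter peak among all peaks of its library, by fold enrichment (left) and by pileup (right). Points are libraries, bars are the mean ± SD where all libraries of a genotype had a call, and the Dcx promoter lies below 40 by fold and below 20 by pileup in the 4 libraries where it was called.

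Ordered by fold enrichment over all 7 libraries, the means were 81.9 ± 4.66 for the outer Dclk1 promoter, 78.1 ± 5.12 for Dclk2, 68.3 ± 25.3 for the internal Dclk1 promoter and 61.1 ± 5.86 for Dclk3 (SD, n = 7). No neighbouring pair in that order differed beyond its spread (exact sign-flip permutation test within libraries, n = 7, p = 0.266, 0.391 and 0.469). By pileup the order was the outer Dclk1 promoter at 76.7 ± 3.33, Dclk2 at 72.5 ± 3.15, Dclk3 at 71.5 ± 3.86 and the internal Dclk1 promoter at 34.5 ± 16.99 (SD, n = 7). Dclk3 ranked above the internal Dclk1 promoter by 37.0 percentile points in 7 of 7 libraries, with the smallest p that this test can give (exact sign-flip permutation test, n = 7, p = 0.0156, adjusted p = 0.0938 over 6 comparisons). The outer Dclk1 promoter ranked above Dclk2 by 4.26 points in 6 of 7 libraries (exact sign-flip permutation test, n = 7, p = 0.0312, adjusted p = 0.0938). Dclk2 and Dclk3 did not differ beyond their spread by pileup (exact sign-flip permutation test, n = 7, p = 0.516). The pairs and their direction came from ordering these same values, so the sign-flip p-values are descriptive.

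Beyond the promoters, the windows of the family held 41 to 48 peaks per library, which merged into 62 regions among 95163 in the genome. Of the 62, 31 were called in all 7 libraries, 50% against 56% of all regions, 19 in 2 to 6 libraries and 12 in a single one. Dclk1 held 28 regions, 17 of them in all libraries. Dclk3 held 14 with 6 in all, Dclk2 held 12 with 5 in all, and Dcx held 8 with 3 in all. Whether a region is exonic or intronic was not determined, because exon annotation of the files' build was not used here.

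**Figure D2:**
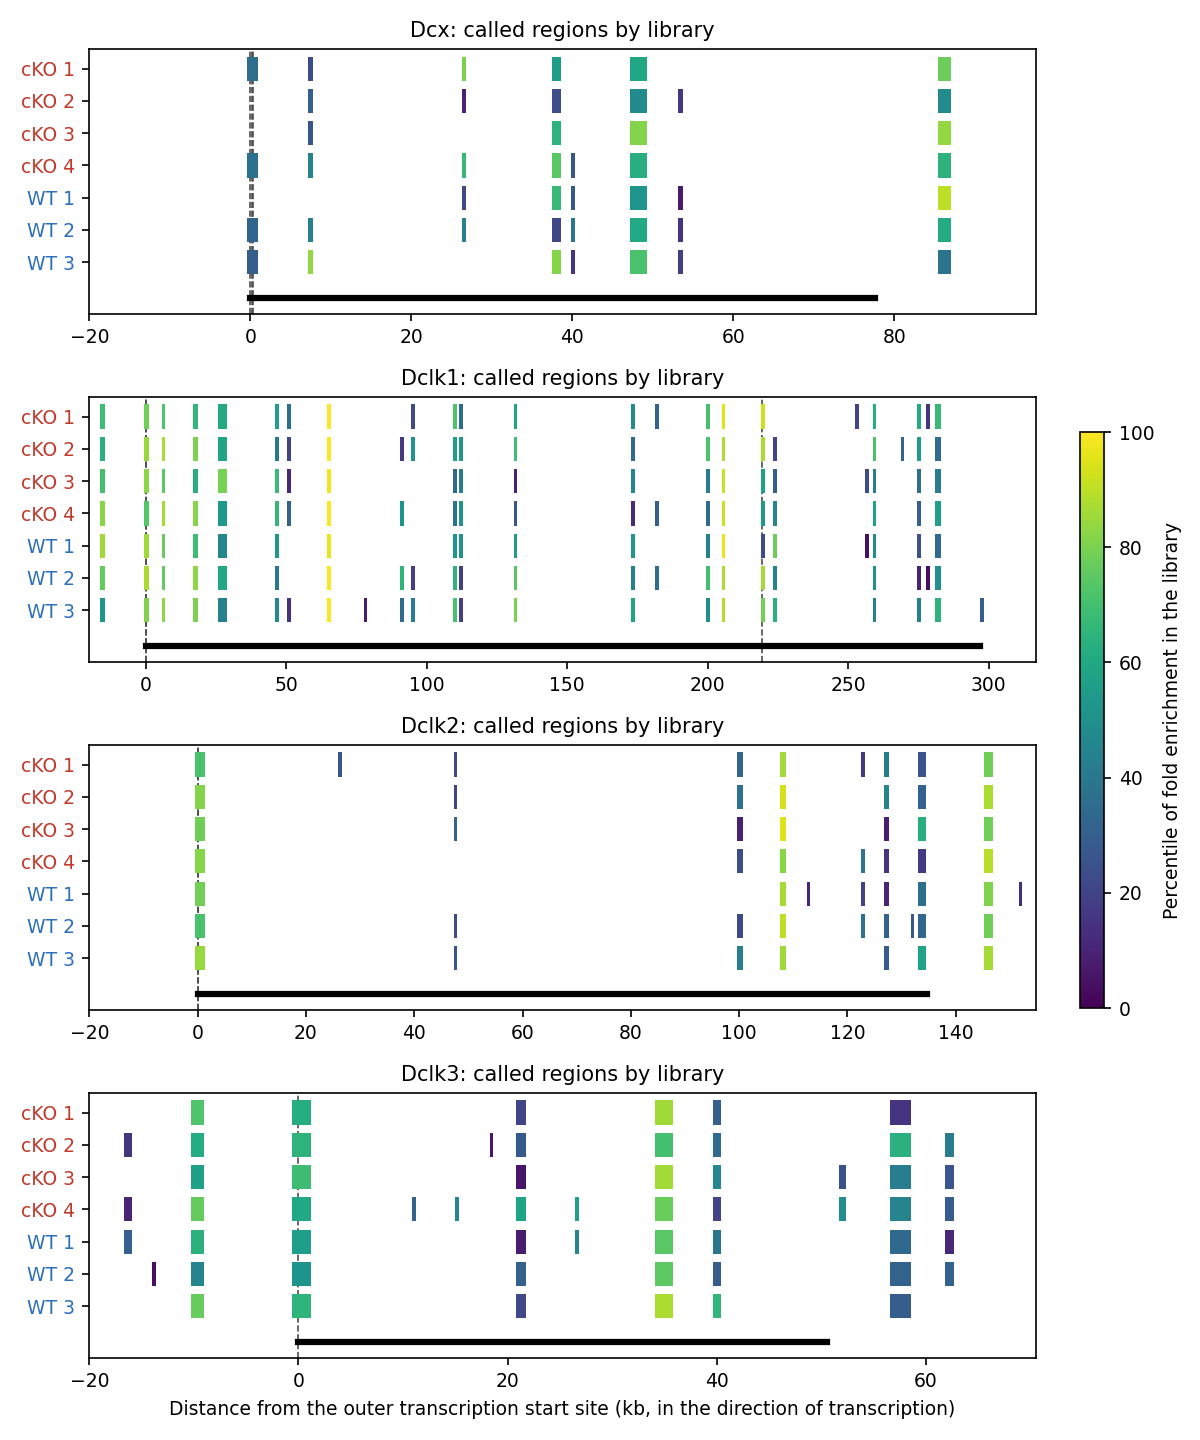
Regions called in each library, by distance in kb from the outer start site in the direction of transcription, for the 4 genes plus 20 kb on both sides. Colour gives the percentile by fold enrichment, the black bar the gene span and dashed lines the annotated start sites, and regions are drawn at their merged extent with narrow ones widened to be visible. The region 65.4 kb inside Dclk1 is the brightest in 6 of 7 libraries, the exception being WT replicate 1.

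By fold enrichment, the region of the family with the highest median lay within Dclk1, 65.4 kb downstream of the outer start, at chr3:55306917-55308428. Its percentile by fold enrichment was 99.7, 99.4, 98.3 and 99.4 in Nedd4L-cKO and 96.5, 99.3 and 99.4 in WT, with a −log10 q of 13.5 to 23.5. It was the highest family region in 6 of 7 libraries, and the genotypes overlapped. By pileup its median percentile was lower, 78.3 (range 69.7 to 87.4), below chr9:111473148-111474932 in Dclk3 at 81.7 and chr3:55351939-55353055 in Dclk1 at 81.1, which were singled out after their values were seen. The second by fold enrichment, chr3:55447395-55448522, lay 13.2 kb before the internal start and ranked at 91.9 ± 3.31 in Nedd4L-cKO (SD, n = 4) against 91.1 ± 5.09 for WT (SD, n = 3), with a median of 69.3 by pileup. It was above the first in WT replicate 1 only, at 96.96. Thus the internal Dclk1 promoter, at a mean of 68.3, had a higher-ranked region upstream of it.

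In Dclk2 the highest region by fold enrichment was also internal, but by pileup its median of 45.5 was below the 73.3 of the promoter. It lay at chr3:86812342-86813424, 108 kb downstream of the start, and ranked at 89.3 ± 6.21 in Nedd4L-cKO (SD, n = 4) against 87.6 ± 2.31 for WT (SD, n = 3). The next, chr3:86773977-86775719, lay past the end of Dclk2 and within Lrba, the only other protein-coding gene in the 4 windows, at 83.4 ± 5.96 (SD, n = 4) and 81.9 ± 4.36 (SD, n = 3) by fold and a median of 53.3 by pileup.

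Dclk3 had its highest region at chr9:111473148-111474932, 34.96 kb inside the gene, with 79.8 ± 7.62 in Nedd4L-cKO (SD, n = 4) against 78.9 ± 7.68 for WT (SD, n = 3) by fold. Its pileup percentiles ran from 76.3 to 86.7, and it was the highest family region by pileup in 3 of 7 libraries. A second stood 9.66 kb upstream of the start, at chr9:111428848-111430004, with 66.8 ± 9.07 (SD, n = 4) and 61.9 ± 16.002 (SD, n = 3) by fold and a median of 47.4 by pileup. These regions are described by rank alone, and they were selected on the same ranks by fold enrichment.

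At Dcx, the 3 regions that were called in all libraries lay away from the promoter. Their median percentiles by fold were 64.5, 64.1 and 60.5, against 34.2 for the promoter in the 4 libraries where it was called. By pileup the medians were 29.9, 34.6 and 60.4 in that order, against 13.0 for the promoter. The region chrX:143894874-143895965, 38.0 kb inside the gene, had percentiles by fold of 55.3, 23.5, 64.5 and 74.0 in Nedd4L-cKO and 67.3, 21.5 and 81.7 in WT. Past the 3′ end, chrX:143846314-143847964 had 77.5, 47.5, 83.6 and 64.1 in Nedd4L-cKO and 89.9, 61.1 and 38.3 in WT. The values of both regions ranged widely within each genotype. Steadier was chrX:143884094-143886184, 48.3 kb inside the gene, with 59.5, 47.6, 81.5 and 62.5 in Nedd4L-cKO and 52.6, 60.5 and 71.4 in WT, and a −log10 q of 4.21 to 9.67. Peaks in the body of Dcx were thus called in every library of both genotypes.

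The other 4 regions of Dcx were called in some libraries only. The region 7.43 kb inside the gene, chrX:143925640-143926287, was absent from WT replicate 1 alone and ranked highest in WT replicate 3, at 83.9, against 23.4 to 44.1 in the 4 Nedd4L-cKO libraries and 43.2 in WT replicate 2. At chrX:143906563-143907065, 3 of 4 Nedd4L-cKO libraries and 2 of 3 WT ones had a peak, with percentiles from 9.56 to 80.1. The remaining 2 were called in 3 of 3 WT libraries and in 1 of 4 Nedd4L-cKO libraries, replicate 2 at chrX:143879642-143880219 and replicate 4 at chrX:143893065-143893540. All their peaks were weak, with a −log10 q of 1.34 to 1.96 at the first and 1.61 to 2.83 at the second. Of all regions, 0.492% were called in every WT library and at most 1 Nedd4L-cKO library, and 0.51% in the mirror pattern, which 1 family region showed, chr3:55292856-55293996 in Dclk1. These 3 were singled out after their values were seen and carry no test.

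**Figure D3:**
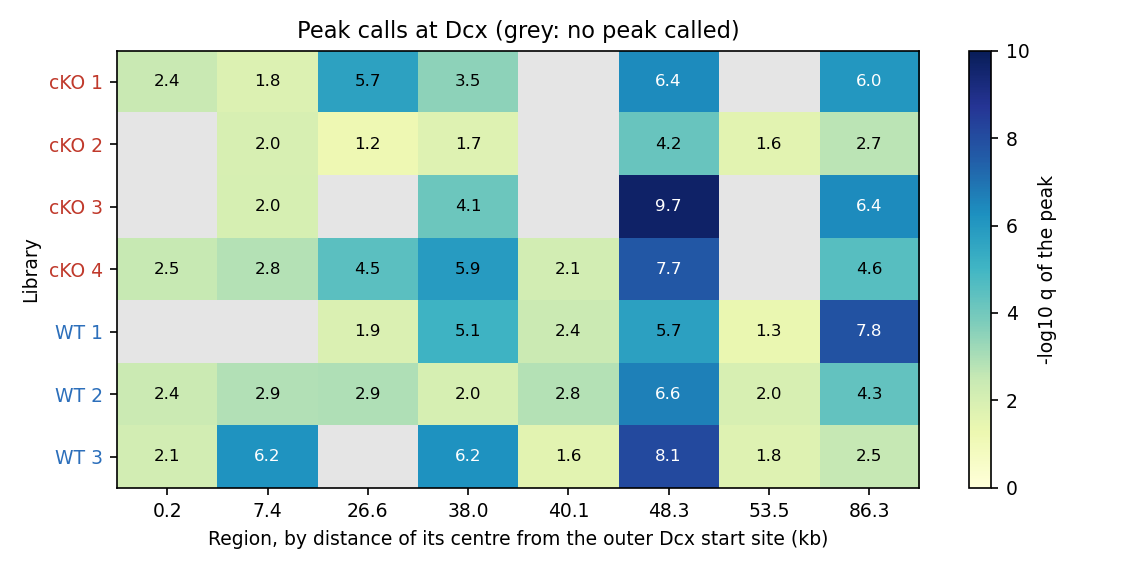
The −log10 q of each peak at Dcx by library and by the distance in kb of the region's centre from the outer start site, with grey where no peak was called. The columns at 38.0, 48.3 and 86.3 kb are filled in all 7 libraries, and the promoter column at 0.2 kb in 4.

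No region of the family separated the genotypes, that is, none was called in all libraries of one genotype and in none of the other. Over all regions 0.0694% were called in all Nedd4L-cKO and no WT libraries and 0.082% in the reverse. Among 62 regions either share corresponds to less than 1 region.

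The total of open regions around each gene was also compared between the genotypes. Dcx had 6, 6, 4 and 7 peaks in the Nedd4L-cKO libraries and 6, 8 and 7 in WT, means of 5.75 ± 1.26 (SD, n = 4) and 7 ± 1 (SD, n = 3). The ranges overlapped, and the difference of −1.25 peaks was within the spread (exact p = 0.286). Dclk1 had 23, 23, 21 and 21 peaks against 19, 23 and 23 (exact p = 1.00). For Dclk2 the numbers were 9, 7, 7 and 7 against 8, 9 and 7 (exact p = 0.657). Dclk3 ranged most widely, with 6, 10, 9 and 12 against 10, 8 and 7 (exact p = 0.629). None of the 4 genes was among the 0.42% of all genes with p under 0.05, and each adjusted p over the 21883 genes was 1.00.

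Peaks covered 4.97 ± 1.30 kb (SD, n = 4) of the Dcx window in Nedd4L-cKO and 5.06 ± 0.931 kb (SD, n = 3) in WT (exact p = 0.943). Around Dclk1 they covered 19.4 ± 2.34 kb (SD, n = 4) and 19.7 ± 0.974 kb (SD, n = 3) (exact p = 0.857). Around Dclk2 they covered 5.36 ± 0.564 kb (SD, n = 4) and 6.47 ± 0.887 kb (SD, n = 3), a difference of −1.11 kb with overlapping libraries (exact p = 0.114). Around Dclk3 they covered 7.01 ± 0.924 kb (SD, n = 4) and 6.76 ± 1.28 kb (SD, n = 3) (exact p = 0.657). Of all genes, 1.14% had p under 0.05 for the length covered, and none of these was a member.

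**Figure D4:**
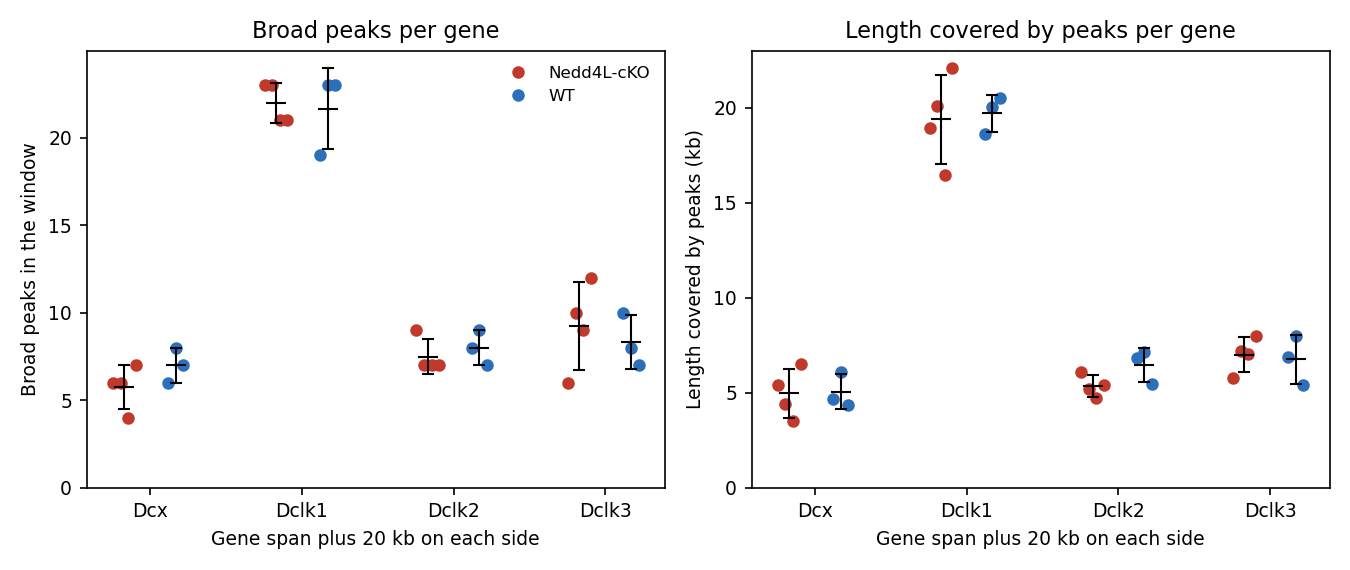
Number of broad peaks (left) and length they cover in kb (right) in each gene span plus 20 kb on both sides. Points are libraries and bars the mean ± SD, with 4 Nedd4L-cKO and 3 WT libraries, and the genotypes overlap for every gene.

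Relative to length, Dclk3 had the most peaks of the 4, with 9.78 per 100 kb of window, the 83.9th percentile of all genes. Dclk1 followed with 6.49 peaks per 100 kb (64.5th percentile), then Dcx with 5.35 (56.5th) and Dclk2 with 4.41 (49.3rd), around the median of 4.51 over all genes. By the share of the window covered, the percentiles were lower, 73.5 for Dclk3, 61.8 for Dclk1, 49.8 for Dcx and 42.2 for Dclk2. Among the 966 genes of the X chromosome, where the median was 1.35 peaks per 100 kb, Dcx lay at the 88.1st percentile. Dcx thus had more peaks per length than most X-linked genes.

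Ranks of fold enrichment of the 31 regions called in every library were then tested with limma on normal scores, in units of 1 SD of the ranks, among all 53245 such regions. Of the 31, 0 had an adjusted p under 0.05, and 0 had an unadjusted p under 0.05, where 0% and 3.98% of all shared regions did. Ranks were higher in Nedd4L-cKO at 19 of the 31 and lower at 12, where 28036 of all 53245 were higher and 25209 lower. The median difference was 0.07 against 0.01 over all regions. The 2 largest differences in each direction were all in Dclk1, the gene with the most regions. At chr3:55373626-55374272, 132 kb inside the gene, the percentile by fold was 58.4, 69.2, 9.14 and 26.0 in Nedd4L-cKO and 55.8, 74.1 and 80.0 in WT. The low values there came from Nedd4L-cKO replicates 3 and 4, and the difference was −0.93 ± 0.431 (SE; limma, adjusted p = 1.00). At chr3:55415152-55416229 the difference was −0.51 ± 0.295 (SE; limma, adjusted p = 1.00). The largest positive difference, 0.57 ± 0.308 (SE; limma, adjusted p = 1.00), was at chr3:55516867-55518175, where percentiles were 60.7, 54.5, 36.4 and 30.8 in Nedd4L-cKO and 24.2, 10.3 and 43.7 in WT. The next was chr3:55353892-55355051 with 0.47 ± 0.266 (SE; limma, adjusted p = 1.00).

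The 3 shared Dcx regions differed by −0.11 to 0.10 normal-score units, with SEs of 0.269 to 0.451, each difference being smaller than its SE. At the promoters the differences were −0.20 ± 0.192 for the outer Dclk1, 0.34 ± 0.536 for the internal Dclk1, −0.0049 ± 0.188 for Dclk2 and 0.17 ± 0.182 for Dclk3 (SE), all with an adjusted limma p of 1.00.

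**Figure D5:**
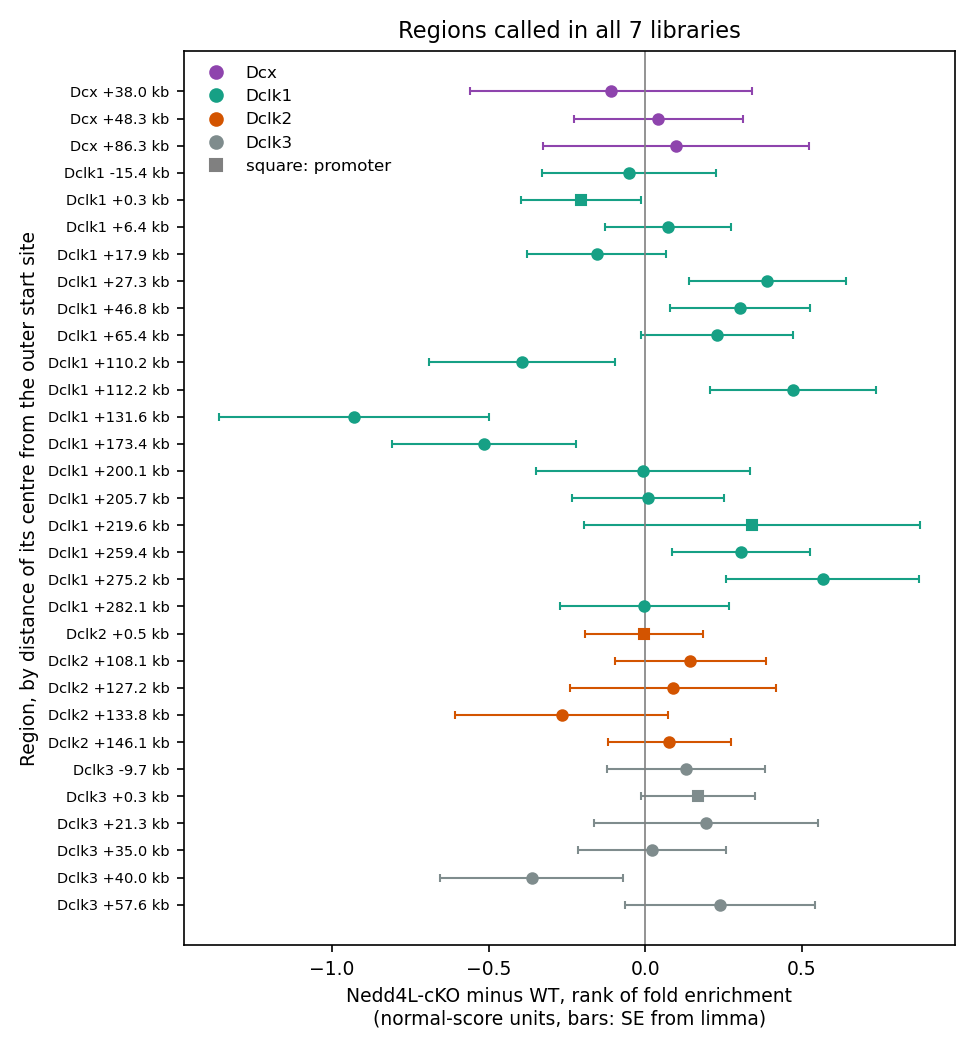
Nedd4L-cKO minus WT difference in the rank of fold enrichment (normal-score units, bars are the limma SE) for the 31 family regions called in all 7 libraries, named by gene and distance in kb from the outer start site. Squares are promoters, and the differences run from −0.93 to 0.57 with no region at an unadjusted limma p under 0.05.

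Other genes of the same biology showed promoters of both kinds. Of 6 genes outside the family that encode doublecortin domains, Dcdc2a had a promoter peak in all 7 libraries and Dcdc2c in 1 Nedd4L-cKO library, whereas Dcdc2b, Dcdc5, Rp1 and Rp1l1 had none. Rp1 and Rp1l1 are known from photoreceptors. Of 28 genes for microtubule and neuronal migration partners, 25 had a promoter peak in all libraries, among them Pafah1b1, which encodes the dynein regulator LIS1, and its partner Ndel1, with median fold percentiles of 65.9 and 74.98. Mapt, which encodes tau, and Stmn2, a neuronal stathmin, had none. Over all 24217 promoters, counted by promoter rather than by gene, 59.1% were called in all 7 libraries and 35% in none. Of the 26 promoters of this list that were called in every library, 1 had an exact p under 0.05, that of the tubulin gene Tubb2a at a fold percentile of 43.1 ± 0.890 in Nedd4L-cKO (SD, n = 4) against 24.9 ± 5.29 for WT (SD, n = 3) (exact p = 0.0286), and 0 had an adjusted p under 0.05 (Tubb2a adjusted p = 0.975). Among all promoters called in every library 2.88% had p under 0.05 by fold enrichment, so 1 of 26 is near the background. An adjusted p under 0.05 was out of reach of this exact test.

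The genes whose covered length varied most like that of a member over the 7 libraries, as a share of each library's total, were listed as a description across 17069 or 17070 genes. For Dcx these were Fndc8 and Nle1 (Pearson r = 0.965 each, n = 7) and Sult6b1 (r = 0.963). Pmm2 (r = 0.990), Cacnb4 and Ankrd54 (r = 0.987 each) were most like Dclk1, and Clip2, Brd2 (r = 0.971 each) and Coa4 (r = 0.970) most like Dclk2. For Dclk3 they were Cpd (r = 0.977), AI429214 (r = 0.968) and 6720489N17Rik (r = 0.962). All values share the same 7 libraries, and the genes were picked as the highest of all compared.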

How the data were processed

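ATAC-seq of MuSCs was analysed from per-library peak lists, with genotypes (4 Nedd4L-cKO, 3 WT) taken from the labels. The methods of the study state trimming with Trimmomatic (0.39), alignment of read pairs to mm10 with BWA-MEM (0.7.17), a mapping quality filter of 30 and removal of duplicates with Picard (2.26.3). Per the file headers, the authors ran MACS2 2.2.7.1 on each library alone, with no control, in broad mode (shift −100 bp, extension 200 bp, broad q cutoff 0.1, narrow cutoff 0.05, 1 tag per position, 151 bp tags taken as single ends). The deposited pileup is a signal without depth scaling, their fold enrichment a ratio to local background, and the deposited p- and q-values are given as −log10. The authors' score column holds the −log10 q times 10. Values of separate runs are not scaled to each other, so ranks were compared. Sampling depth (tags kept) limits which weak peaks are called.

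Gene spans came from RefSeq on GRCm38, start sites from RefSeq promoter sequences and the outer end of the span, and strands of genes missing there (Dclk3 included) from GENCODE by symbol. A promoter was any start site ± 1 kb and an overlap at least 1 bp. Percentiles ran from 0 to 100 within a library. Exact two-sided permutation tests used all 35 divisions of 7 libraries, and limma 3.58.1 (R 4.3.3, Benjamini-Hochberg adjustment) was fitted on normal scores over all regions called in every library. Both were tested on simulated data. Other steps used numpy 2.4.6, pandas 2.3.3 and scipy 1.17.1 under Python 3.11.15. No peak had identical ends and pileup in any pair of libraries, so each counted once, and the 2 mitochondrial peaks per library were left out. The study gives mice as its n, and p-values measure the spread between libraries.

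The members, gene lists and tests were chosen with earlier results of these data known. The values of 1 gene in the list of microtubule and migration partners are not reported here, although it is counted among the list's genes. Named regions were every promoter, the 2 highest-ranked shared regions per gene, any region separating the genotypes and the 2 with the lowest limma p in each direction. Comparisons of neighbouring promoters, ranks within the X chromosome, shares of regions that nearly separate the genotypes, and pileup ranks of the highest regions were added after the data were seen. Alternatives were a −log10 q of at least 5, equal numbers of peaks, broad peaks holding a narrow peak, other windows and overlaps, other rank measures, lane 1 alone, a covariate for tags, a replicate block and each library left out in turn.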

Additional observations from a re-analysis of the deposited data

Results flagged for a closer look

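Of 47 measures of the family in the 4 Nedd4L-cKO libraries, 1 had a library far from the other 3, the number of peaks at Dclk2. It was 9 in replicate 1 and 7 in each of the others, so the gap took up the whole range, a ratio of 1 that is past Dixon's 95% critical value. For continuous values chance gives this in about 1 of 20 groups. These are small counts with ties, and 47 measures were screened, so that rate need not hold here.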

How the results depend on the processing

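No call of the family changed under the alternatives, since none was made: adjusted limma p-values were 0.854 or higher in all 15 alternatives, with 0 of 11 to 33 shared regions called. At an unadjusted p under 0.05 the count was 0 in the values reported, 2 of 31 with tags kept as a covariate (5.73% of all shared regions under that setting), 1 of 31 in lane 1 alone (4.39%) and 0 to 3 with a library left out. The highest were 3 of 32 without Nedd4L-cKO replicate 1 (4.03% of all) and 3 of 33 without WT replicate 1 (3.97%), then 2 of 31 without Nedd4L-cKO replicate 2 (4.04%). Small differences in peaks per gene changed sign or fell to 0: with a −log10 q of at least 5 they were −0.0833 at Dclk1, 0 at Dclk2 and −0.167 at Dclk3; with peaks holding a narrow peak −0.75 at Dclk1 and −0.417 at Dclk3; and 0 at Dclk2 with equal numbers of peaks. The length covered changed sign to 0.583 kb at Dclk1 with a −log10 q of at least 5, −0.600 kb at Dclk3 with narrow peaks, 0.229 kb at Dclk1 with a 50 kb flank, and 0.0617 kb at Dclk1 and −0.414 kb at Dclk3 in lane 1 alone. None of these differences had p under 0.05, and the cause was not tested. Replicate numbers are shared between genotypes, but nothing in the labels ties same-numbered libraries, and they were not treated as pairs. Correlations of same-numbered deviations were −0.123, 0.033 and −0.122. The deviations were centred within genotype, which makes such correlations balance in sign, so they cannot decide whether libraries were paired. With the replicate block the Dclk3 differences became 0 peaks and −0.087 kb, with no call made, and the smallest p that block allows is 0.25.

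With a library left out, the difference in peaks ran from −1.75 to −0.667 at Dcx, −1 to 1 at Dclk1, −1 to 0 at Dclk2 and 0 to 2 at Dclk3, and in kb from −0.61 to 0.442, −1.22 to 0.649, −1.61 to −0.775 and −0.414 to 0.858. Without a Nedd4L-cKO library the smallest exact p is 0.1, and without a WT library, as in lane 1 alone, it is 0.0667. None of those tests can pass the threshold. The length covered at Dclk2 reached these limits, with −1.61 kb without WT replicate 3 (exact p = 0.0667) and −1.36 kb without Nedd4L-cKO replicate 1 (exact p = 0.1). In these settings every Nedd4L-cKO library lay below every WT library. Regions that separated the genotypes numbered 0 to 1 in each direction. Within lane 1, which leaves out WT replicate 3, chr3:55292856-55293540 in Dclk1 was called in Nedd4L-cKO but not WT (1 region). Without Nedd4L-cKO replicate 2 the same site, merged anew to end at 55293495, was counted as called in Nedd4L-cKO only. The WT replicate 3 peak of the full region, chr3:55292856-55293996, then fell outside the shorter one, so this count came from the merging. Called in WT but not Nedd4L-cKO were chrX:143879642-143880219 without Nedd4L-cKO replicate 2 and chrX:143893131-143893540 without Nedd4L-cKO replicate 4. At a −log10 q of at least 5, the Dcx promoter was called in 0 libraries and the internal Dclk1 promoter in 4, by construction of the higher threshold. With equal numbers of peaks, broad peaks holding a narrow peak or start sites ± 2.5 kb, the Dcx promoter was still called in 4 libraries. Peak lists hold no value below the calling threshold, so a promoter without a call is not shown to be closed.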
